A study of Mus musculus with 6 samples.

Results

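The caveolae genes are the 8 genes Cav1, Cav2, Cav3, Cavin1, Cavin2, Cavin3, Ehd2 and Pacsin2, named for their part in building caveolae. Of these, 7 had a probe set annotated to that gene alone, among 18193 genes measured in all, and Pacsin2, which encodes a membrane-bending protein of caveolae, was not analysed here. RNA had been hybridised to 6 Affymetrix mouse arrays from cells of 3 tissues at embryonic day 9.5, namely the heart tube, the embryo's caudal-half tissue and the yolk sac, with 2 arrays each, labelled as biological replicates. In every group the mice were of mixed background with no mutant allele or agent stated, and the cells were freshly isolated and sorted by flow cytometry as CD31+, CD41- and CD45-. CD31 marks endothelium, CD45 leukocytes and CD41 megakaryocytes and some blood progenitors, so this gate enriches endothelium and does not name a single cell type. How many embryos were pooled for a replicate is not stated. The 8 genes were proposed with results of these arrays known, and the probe set of each was chosen by its mean level over all 6 arrays.

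Caveolae are small flask-shaped pits of the plasma membrane that are abundant in endothelium, fat and muscle. Caveolin proteins insert into the inner leaflet of the membrane, and cavin proteins assemble on them as a coat that gives the pit its shape. They buffer membrane tension, take part in uptake across the vessel wall, and hold signalling proteins such as endothelial nitric oxide synthase.

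Levels are natural logs of the deposited signals, which are read as the authors' RMA log2 values because the signals reach 2172540, far above the 65535 of a 16-bit scanner, while their natural logs run from 0.899 to 14.6. Were the signals linear instead, each difference would be larger by a factor of 1.44, with the same p-values. For each gene the probe set with the highest mean over all 6 arrays was used, so that mean is a choice and not a finding. Levels are compared between arrays for 1 gene at a time, never between genes. Probe sets for bacterial RNAs read 1.33 to 4.03 and show what a weak signal looks like, and all 7 caveolae genes had means above that range in all 3 tissues. A difference was called when limma's Benjamini-Hochberg adjusted p over all 18193 genes was under 0.05. All 3 comparisons come from the same 6 arrays and share their samples. In RNA from sorted populations, fewer cells of a type and less RNA per cell cannot be told apart.

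Replicate arrays correlated at r = 0.981 to 0.986 over all probe sets, and arrays of different tissues at 0.947 to 0.969. Ptprc, which encodes CD45, was within the bacterial range in all 3 tissues. All 13 endothelium markers, among them Pecam1, Cdh5 and Kdr, were above it everywhere, so the defining markers of the labelled cells were present. Pecam1, which encodes CD31, had means of 9.55 in heart tube, 9.95 in caudal-half tissue and 9.96 in yolk sac, and Cdh5 was lower in heart tube than in yolk sac by a difference of -0.87 (limma adjusted p = 0.0166). Itga2b, which encodes CD41, was at 6.87 in heart tube, 6.61 in caudal-half tissue and 8.28 in yolk sac, and of the 3 sort genes it was the 1 called, lower than in yolk sac in both other tissues. The mean level of the endothelium markers was 8.89 and 9.02 on the heart tube arrays, 9.65 and 9.74 on the caudal-half arrays, and 10.11 and 10.20 on the yolk sac arrays.

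The promoters of 3 genes with called differences, Cavin2, Cav2 and Cav1, are shown first. Cavin2 is the gene that was far lower in caudal-half tissue, and Cav2 and Cav1, next to each other on chromosome 6, were both higher in yolk sac than in heart tube. The windows run from 250 bases before to 50 after the gene start. They come from RefSeq on build GRCm38.p6, where 7 of the 8 genes, all but Cavin3, had an entry. For Cav1 the first of its 2 listed starts is given. Capitals mark matches, on either strand, to the 5 motifs searched. GGGCGG is a motif of Sp and Klf factors, and CCAAT that of the factor NF-Y. The letters TATAAA form the core promoter box of that name. The other motifs searched were AGATAA, bound by the Gata family, and CGGAAG, bound by the Ets family.
Cavin2, chr1:51288876-51289175, plus strand: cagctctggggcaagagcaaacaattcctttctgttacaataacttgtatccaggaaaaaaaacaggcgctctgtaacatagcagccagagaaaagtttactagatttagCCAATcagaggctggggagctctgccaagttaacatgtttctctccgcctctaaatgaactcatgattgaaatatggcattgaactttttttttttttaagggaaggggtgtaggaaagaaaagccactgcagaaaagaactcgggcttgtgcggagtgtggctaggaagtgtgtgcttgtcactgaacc
Cav2, chr6:17280935-17281234, plus strand: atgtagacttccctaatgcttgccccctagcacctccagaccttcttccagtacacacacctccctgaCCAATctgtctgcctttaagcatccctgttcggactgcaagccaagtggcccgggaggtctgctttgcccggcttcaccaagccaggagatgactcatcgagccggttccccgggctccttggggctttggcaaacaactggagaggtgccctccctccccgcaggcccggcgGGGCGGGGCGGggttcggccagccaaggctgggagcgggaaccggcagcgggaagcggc
Cav1, chr6:17306085-17306384, plus strand: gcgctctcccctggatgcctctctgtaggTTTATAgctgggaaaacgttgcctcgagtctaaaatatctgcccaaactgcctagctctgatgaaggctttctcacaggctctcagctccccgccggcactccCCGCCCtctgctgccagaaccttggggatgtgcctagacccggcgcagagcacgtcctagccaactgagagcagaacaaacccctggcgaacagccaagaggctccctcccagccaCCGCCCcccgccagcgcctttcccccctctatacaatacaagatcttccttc

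The Cavin2 window was 43.3% G and C with 4 CpG dinucleotides and held 1 CCAAT match and no GGGCGG match. The Cav2 window was 64.3% G and C with 16 CpG dinucleotides and held 1 CCAAT match and 2 GGGCGG matches that overlap each other, at the gene start. In the Cav1 window, at 59.3% G and C with 13 CpG dinucleotides, there were 2 GGGCGG matches and 1 TATAAA match, the last far upstream and on the minus strand. None of the 3 windows held AGATAA or CGGAAG. The window of the second Cav1 start, not shown, held none of the motifs searched. Over all 32851 promoters of the same length, 35.7% held GGGCGG, 37.4% CCAAT, 13.6% TATAAA, 11.2% AGATAA and 16.9% CGGAAG. These matches describe the letters of the windows and no factor's binding.

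Of the 3 caveolin genes, Cav1 and Cav2 were called lower in heart tube than in yolk sac, and Cav3 was called in no comparison. Cav1 encodes caveolin-1, the caveolin without which endothelium forms no caveolae. It read 5.46 and 5.78 on the heart tube arrays, 6.71 and 6.57 on the caudal-half arrays, and 7.08 and 7.52 on the yolk sac arrays. The heart tube arrays were lowest and the yolk sac arrays highest, with no overlap between the tissues. Cav1 was lower in heart tube than in yolk sac (log2 difference -1.68 ± 0.22 SE, n = 2 each, limma adjusted p = 0.0053). The neighbouring steps did not pass. Between heart tube and caudal-half tissue the difference was -1.03 ± 0.22, at a limma adjusted p of 0.0501, and between caudal-half tissue and yolk sac it was -0.66 ± 0.22 (limma adjusted p = 0.129, 95% interval -1.18 to -0.13). The first of these lay on the threshold: it passed in 6 of 11 alternative analyses, among which the scaling to endothelium markers is not counted. Limma adjusted p ran from 0.0347 with the mean of all probe sets to 0.0689 with a replicate block, where both arrays of each tissue were kept. Cav1 has 1 probe set, so taking that mean left its difference at -1.03. Only the spread and the adjustment, which draw on other genes, changed there. Without any 1 array of either tissue the Cav1 difference did not pass, and it lay between -1.19 and -0.87. All 6 passes thus came from fits that kept both arrays of each compared tissue. It passed with these 2 tissues fitted alone (limma adjusted p = 0.0488), which is the same fit as leaving out either yolk sac array.

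Cav2 encodes caveolin-2, which is carried to the surface by caveolin-1 and forms mixed oligomers with it. Its levels were 6.26 and 5.58 in heart tube, 5.77 and 5.98 in caudal-half tissue, and 8.29 and 8.08 in yolk sac. Heart tube and caudal-half tissue overlapped, whereas both yolk sac arrays stood clear above all others. Against yolk sac, Cav2 was lower in heart tube (-2.27 ± 0.26 SE, limma adjusted p = 0.00301) and in caudal-half tissue (-2.32 ± 0.26, limma adjusted p = 0.0044). Between heart tube and caudal-half tissue it differed by 0.04, with a 95% interval of -0.57 to 0.66. A second probe set did not show the yolk sac level: it read 5.32 and 5.43 in heart tube, 5.94 and 5.60 in caudal-half tissue, and 5.62 and 5.90 in yolk sac, and passed no test. With the mean of both probe sets the differences from yolk sac shrank to -1.33 in heart tube and -1.16 in caudal-half tissue, and both still passed (limma adjusted p = 0.00286 and 0.00689). The probe sets of Cav2 therefore gave different calls against yolk sac in both tissues. For heart tube minus yolk sac the second gave -0.38 (limma adjusted p = 0.309). For caudal-half tissue minus yolk sac it gave 0.01 (limma adjusted p = 0.993).

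Cav3 encodes caveolin-3, the muscle caveolin of cardiac and skeletal fibres. It read 4.89 and 4.60 in heart tube, 4.78 and 4.59 in caudal-half tissue, and 4.67 on both yolk sac arrays. Heart tube arrays overlapped those of the other tissues, and all values lay just above the bacterial range. No difference passed, and the heart tube difference from caudal-half tissue was 0.06 (95% interval -0.37 to 0.50) and from yolk sac 0.08 (-0.36 to 0.51). Cardiomyocyte markers did differ on these arrays: 6 of 14 were higher in heart tube than in caudal-half tissue and 8 than in yolk sac, and 0 were lower. Their mean level was 6.55 and 6.57 on the heart tube arrays, against 4.85 and 4.93 in caudal-half tissue and 4.40 and 4.50 in yolk sac. Ryr2 and Nkx2-5 were within the bacterial range in every tissue. The part of cardiomyocytes in the levels of Cav3 was not tested. Of 5 skeletal muscle markers, 1 was higher in heart tube than in caudal-half tissue and 1 than in yolk sac, with 0 lower. In both cases it was Des (0.87 and 0.85). Myf5 and Myog were within the bacterial range in all 3 tissues.

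**Figure D1:**
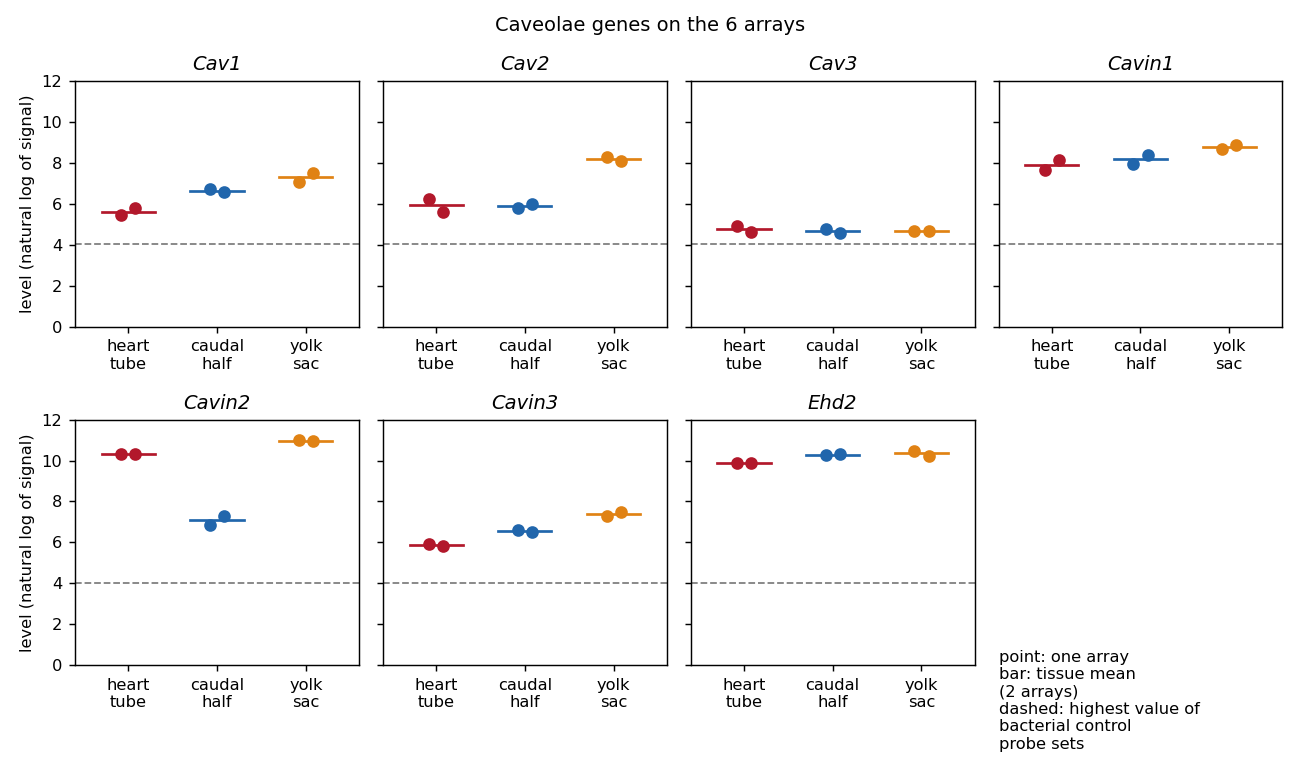
Levels of the 7 measured caveolae genes (natural log of deposited signal, vertical axis) on each array by tissue, with the tissue mean as a bar and the highest bacterial control value, 4.03, as a dashed line. The caudal-half arrays of Cavin2, at 6.84 and 7.31, lie far below its heart tube and yolk sac arrays, and Cav2 is high on the yolk sac arrays.

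Among the cavins, Cavin2 showed the widest range of tissue means of all 7 genes. It encodes the coat protein also called SDPR, which binds phosphatidylserine and can draw caveolae out into tubules. It read 10.30 on both heart tube arrays, 6.84 and 7.31 on the caudal-half arrays, and 10.99 and 10.96 on the yolk sac arrays. Both caudal-half arrays were low, and the 3 tissues did not overlap. Cavin2 was higher in heart tube than in caudal-half tissue by 3.22 ± 0.20 (SE, n = 2 each, limma adjusted p = 0.000729), a 9.33-fold difference on this reading of the scale. It was lower in caudal-half tissue than in yolk sac (-3.90 ± 0.20, limma adjusted p = 0.000399), a 14.95-fold difference. The heart tube and yolk sac differed by -0.68 ± 0.20, which did not pass (limma adjusted p = 0.0849, 95% interval -1.17 to -0.19). By absolute size the caudal-half difference ranked 92nd of 18193 genes against heart tube and 45th against yolk sac.

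Every probe set of Cavin2 gave caudal-half tissue as low. The second probe set read 8.26 and 8.06 in heart tube, 4.74 and 4.67 in caudal-half tissue, and 9.19 and 8.92 in yolk sac. The third, whose name marks it as able to catch related sequences, read 7.40 and 7.61 in heart tube, 4.30 and 5.31 in caudal-half tissue, and 8.52 and 8.85 in yolk sac. In a fit over all 34945 probe sets named for 1 gene, heart tube minus caudal-half differences of the 3 probe sets were 3.22, 3.46 and 2.70, and those of caudal-half tissue minus yolk sac were -3.90, -4.35 and -3.88, and all 6 passed (highest limma adjusted p 0.0107). Between heart tube and yolk sac 1 of the 3 passed (-0.90, limma adjusted p = 0.0335). Across 11 alternative analyses, the calls against caudal-half tissue all held. Where both arrays of each compared tissue were kept, limma adjusted p was at most 0.00319 against heart tube and 0.00232 against yolk sac. The scaling to endothelium markers, not among the 11, kept both calls too.

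Some mesenchyme and mesothelium markers were low in caudal-half tissue as Cavin2 was, and others were not. Of 11 such markers, 7 were called higher in heart tube than in caudal-half tissue and 0 lower, beside 2.86% and 2.65% of all genes. The other 4, Col1a1, Lum, Dcn and Wt1, had the lower mean in heart tube. Against yolk sac, 6 were called lower in caudal-half tissue and 1, Pdgfra, higher, beside 4.86% and 4.22% of all genes. The genes called in these comparisons were largely not the same. Only Col1a2, Col3a1 and Postn were called lower in caudal-half tissue than in both other tissues, the pattern of Cavin2. Tcf21, called higher in heart tube, differed by -0.01 between caudal-half tissue and yolk sac. The mean level of the 11 was 7.27 and 7.33 in heart tube, 5.67 and 5.70 in caudal-half tissue, and 7.42 and 7.47 in yolk sac. Dcn and Wt1 were within the bacterial range in heart tube and caudal-half tissue, Lum in heart tube, and Tcf21 in caudal-half tissue and yolk sac. The part of such cells in the Cavin2 result was not tested. Of 13 endothelium markers, 5 were called lower in heart tube than in caudal-half tissue and 1 higher. By means alone, 11 were lower in heart tube there. Between caudal-half tissue and yolk sac, 3 were called lower in caudal-half tissue and 1 higher, and 12 had the lower mean there. Between heart tube and yolk sac, 8 were called lower in heart tube and 0 higher. Robo4 was lower in heart tube than in caudal-half tissue (-2.31, limma adjusted p = 0.00629). Clec14a was lower in caudal-half tissue than in yolk sac (-2.89, limma adjusted p = 0.0011). Cldn5, the claudin of endothelial tight junctions, was at 6.77 ± 0.53 in heart tube and 10.16 ± 0.08 in caudal-half tissue (SD, n = 2), opposite in direction to Cavin2. Eng, an endothelial co-receptor for TGF-beta ligands, was low in caudal-half tissue as Cavin2 was, at 9.26 ± 0.01 in heart tube, 8.30 ± 0.03 in caudal-half tissue and 9.14 ± 0.06 in yolk sac, and was called in both comparisons (limma adjusted p = 0.0207 and 0.0245). Tek, the angiopoietin receptor gene, was lower in caudal-half tissue than in yolk sac (-1.18, limma adjusted p = 0.012).

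Cavin1 encodes the cavin that every caveolar coat needs. It read 7.63 and 8.15 in heart tube, 7.97 and 8.41 in caudal-half tissue, and 8.66 and 8.88 in yolk sac. Heart tube and caudal-half tissue overlapped, and the yolk sac arrays were the highest. No difference passed with this probe set: heart tube minus yolk sac was -0.88 ± 0.25 (limma adjusted p = 0.077, 95% interval -1.48 to -0.27) and caudal-half tissue minus yolk sac -0.58 ± 0.25 (limma adjusted p = 0.226). A dimmer probe set with closer replicates read 5.52 and 5.46 in heart tube, 5.69 and 5.86 in caudal-half tissue, and 6.81 and 6.63 in yolk sac. It passed against yolk sac in both tissues, at -1.23 in heart tube (limma adjusted p = 0.00954) and -0.95 in caudal-half tissue (limma adjusted p = 0.0305). The third, between 4.59 and 5.23 on all arrays, passed nowhere. All 3 probe sets placed the yolk sac mean highest, so they gave 1 direction but not 1 call.

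Cavin3 encodes a cavin that binds caveolin-1 and protein kinase C delta. It read 5.91 and 5.80 in heart tube, 6.61 and 6.50 in caudal-half tissue, and 7.31 and 7.48 in yolk sac. Its tissues did not overlap and stood in the same order as those of Cav1. Cavin3 was lower in heart tube than in yolk sac (-1.54 ± 0.17 SE, limma adjusted p = 0.0026). It was also lower in caudal-half tissue than in yolk sac (-0.84 ± 0.17, limma adjusted p = 0.029), but that call was lost without any 1 of the 6 arrays (limma adjusted p between 0.0614 and 0.121), while the difference stayed between -0.93 and -0.76. Where a tissue keeps a single array, that array is assumed to vary like those of the other tissues. The heart tube and caudal-half tissue differed by -0.70 ± 0.17, which missed the threshold (limma adjusted p = 0.0707, 95% interval -1.10 to -0.30).

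Ehd2 encodes a dynamin-related ATPase that sits at the neck of caveolae and holds them at the surface. It read 9.88 and 9.90 in heart tube, 10.26 and 10.30 in caudal-half tissue, and 10.48 and 10.23 in yolk sac. The heart tube arrays were the lowest, and caudal-half tissue and yolk sac overlapped. No difference passed: heart tube minus caudal-half tissue was -0.39 (95% interval -0.80 to 0.02), heart tube minus yolk sac -0.47 (-0.87 to -0.06) and caudal-half tissue minus yolk sac -0.07 (-0.48 to 0.33). Of its 4 other probe sets, 1 passed in 1 comparison, with 7.72 and 7.74 in heart tube against 8.48 and 8.68 in yolk sac (-0.85, limma adjusted p = 0.0311). Another went the opposite way in heart tube, higher by 0.73 than in caudal-half tissue and by 0.72 than in yolk sac without passing. A further one lay within the bacterial range on all 6 arrays, between 2.17 and 3.40.

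**Figure D2:**
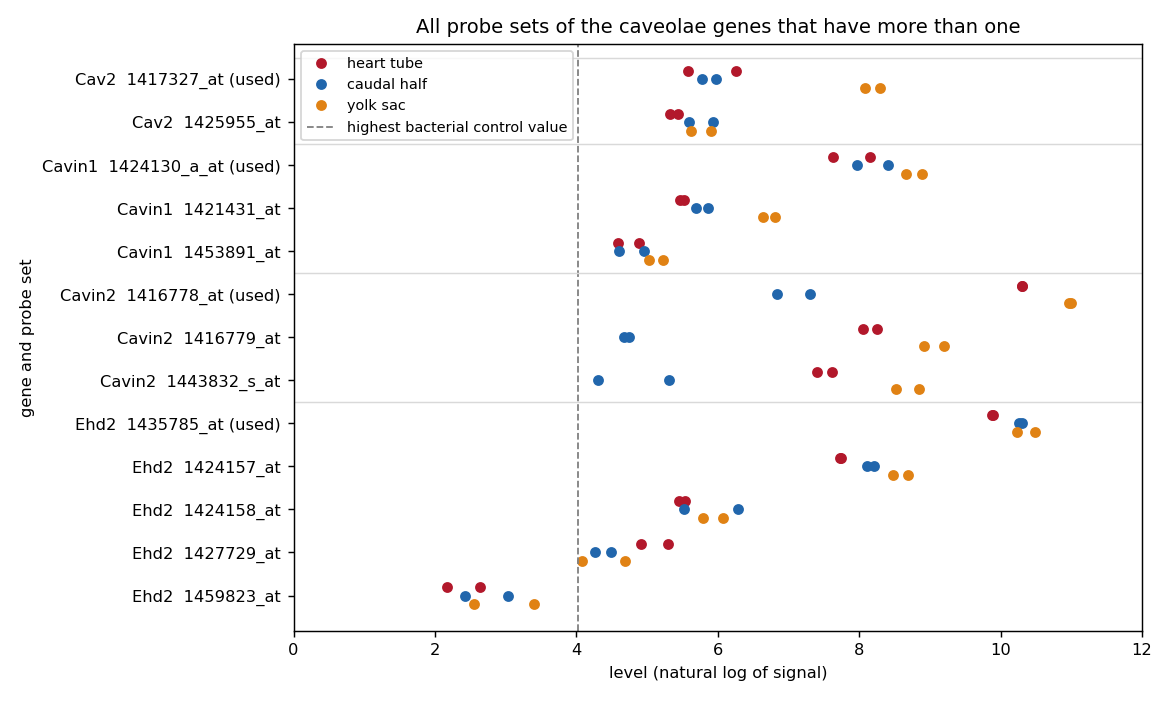
Levels (natural log of deposited signal, horizontal axis) of all 13 probe sets of the 4 caveolae genes that have more than 1, with a point per array coloured by tissue and the highest bacterial control value, 4.03, as a dashed line. All 3 Cavin2 probe sets place caudal-half tissue low, whereas the probe sets of Cav2 and Ehd2 do not all give the same order of tissues.

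Counted together, 1 of the 7 genes was higher in heart tube than in caudal-half tissue (Cavin2) and 0 lower, where 2.86% of all genes were called higher and 2.65% lower, 5.51% in all. Against yolk sac, 0 were higher and 3 lower in heart tube (Cav1, Cav2 and Cavin3), where 5.14% of all genes were called higher and 6.67% lower, 11.8% in all. In caudal-half tissue 0 were higher and 3 lower than in yolk sac (Cav2, Cavin2 and Cavin3), where 4.22% of all genes were called higher and 4.86% lower, 9.08% in all. The median difference of the 7 genes was -0.29 for heart tube minus caudal-half tissue, -0.88 for heart tube minus yolk sac and -0.66 for caudal-half tissue minus yolk sac, beside -0.08, -0.06 and 0.02 over all genes. Groups did not overlap for 4 of 7 genes between heart tube and caudal-half tissue, 6 between heart tube and yolk sac and 5 between caudal-half tissue and yolk sac, where 51.3%, 56.3% and 51.6% of all genes did not overlap. Cavin2 was called lower in caudal-half tissue than in both other tissues, as were 0.813% of all genes. Cav2 and Cavin3 were called higher in yolk sac than in both others, as were 3.18% of all genes, and 0 of the 7 were called lower in heart tube than in both others, as were 1.49%. By tissue means alone, yolk sac was highest for 6 of the 7 genes, all but Cav3, as for 37.2% of all genes. The set of 7 was chosen with results of these arrays known, so these shares describe it and carry no test.

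**Figure D3:**
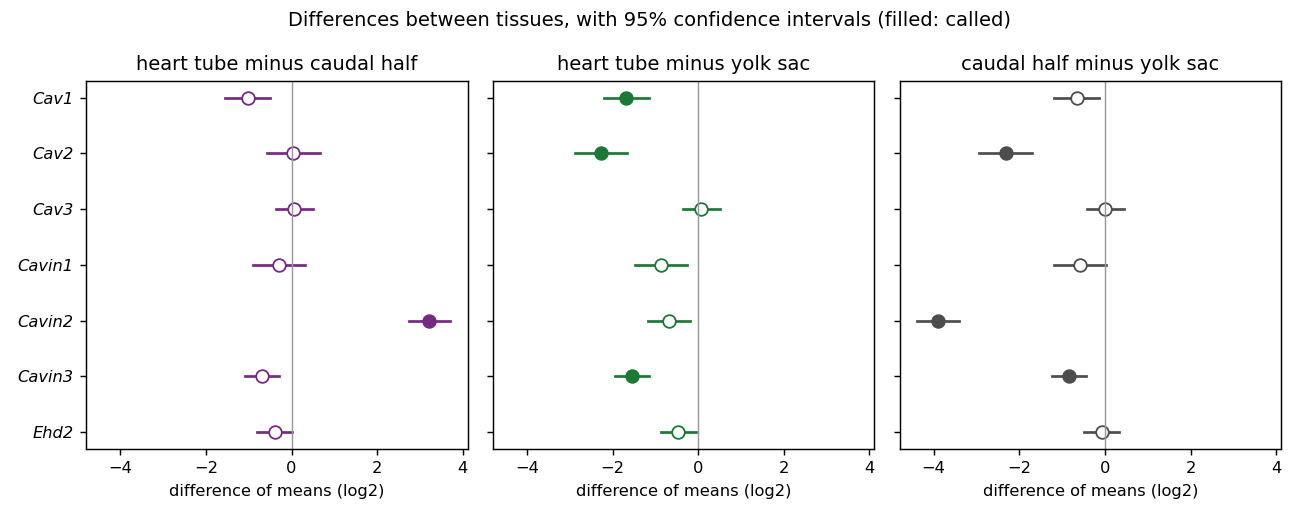
Differences between tissue means (log2, horizontal axis) of the 7 measured caveolae genes with 95% confidence intervals, filled where limma's adjusted p passed 0.05. Cavin2 stands at 3.22 for heart tube minus caudal-half tissue and at -3.90 for caudal-half tissue minus yolk sac, and every other called difference is a lower level than in yolk sac.

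The order heart tube, caudal-half tissue, yolk sac was that of the endothelium markers too, and 4 genes had it (Cav1, Cavin1, Cavin3 and Ehd2), as did 22.9% of all genes. After each array was shifted to the same mean level of the 13 endothelium markers, a step chosen after seeing the data that adds 1 constant to every gene's difference, the median over all genes moved to 0.67 for heart tube minus caudal-half tissue, 1.14 for heart tube minus yolk sac and 0.47 for caudal-half tissue minus yolk sac. The 13 markers differed unevenly. For heart tube minus yolk sac their median was -0.87, with Cldn5 at -3.54, Clec14a at -2.90 and Robo4 at -2.87, and 2 had the higher mean in heart tube. Relative to the mean of those markers Cav1 was no longer called between heart tube and yolk sac (-0.48, limma adjusted p = 0.0636), nor was Cavin3 there (-0.34, limma adjusted p = 0.126) or between caudal-half tissue and yolk sac (-0.39, limma adjusted p = 0.145). How far these lost calls rest on a few markers was not tested. Cav2 kept its calls against yolk sac, at -1.07 in heart tube and -1.86 in caudal-half tissue (limma adjusted p = 0.0102 and 0.00725). Cavin2 kept its calls against caudal-half tissue, at 3.97 for heart tube minus caudal-half tissue and -3.45 for caudal-half tissue minus yolk sac, and for heart tube minus yolk sac it came to 0.52 (limma adjusted p = 0.0435), with Ehd2 at 0.73 and Cavin1 at 0.32. The change of sign of these 3 follows from the constant, and all 3 lay below the shifted median of 1.14. Cav3 was then called higher in heart tube than in caudal-half tissue (0.81, limma adjusted p = 0.0234) and yolk sac (1.28, limma adjusted p = 0.00178), both near the shift of all genes.

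Markers of the visceral endoderm, the epithelium that covers yolk sac vessels, were high on the yolk sac arrays. Of 10 such markers, 9 were lower in heart tube than in yolk sac and 9 in caudal-half tissue, with 0 higher, and 1 was lower in heart tube than in caudal-half tissue. Their mean level was 4.39 and 4.42 in heart tube, 4.73 and 4.74 in caudal-half tissue, and 9.64 and 9.68 in yolk sac, and Apob and Amn were within the bacterial range in heart tube and caudal-half tissue. Epithelium markers were lower in heart tube than in yolk sac in 4 of 5 and in caudal-half tissue in 2 of 5, with 0 higher, and lower in heart tube than in caudal-half tissue in 3 of 5. Of 7 erythroid markers, 4 were lower in heart tube than in yolk sac and 1 higher, 4 were lower in caudal-half tissue than in yolk sac and 0 higher, and 3 were lower in heart tube than in caudal-half tissue and 0 higher. Smooth muscle markers, 4 in all, were called in heart tube against yolk sac in 1 upward and 1 downward, and in caudal-half tissue against yolk sac in 1 upward. The part of such cells in the yolk sac levels of Cav1, Cav2 and Cavin3 was not tested.

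Paralogues of the caveolae genes did not move as one. Ehd3, an EHD ATPase of endosomal recycling, read 5.16 and 5.21 in heart tube, 4.54 and 4.14 in caudal-half tissue, and 8.27 and 8.18 in yolk sac. It was lower than in yolk sac in both, with differences of -3.04 ± 0.19 in heart tube and -3.89 ± 0.19 in caudal-half tissue (SE, limma adjusted p = 0.000351 and 0.000379). Its caudal-half arrays lay just above the bacterial range, so the size of the second difference is uncertain. Ehd4, which encodes another EHD ATPase, was lower in heart tube than in caudal-half tissue (-1.10, limma adjusted p = 0.0177) and yolk sac (-1.64, limma adjusted p = 0.00229). Cavin4, the cavin of heart and skeletal muscle, read 5.32 and 4.97 in heart tube, 4.78 and 4.63 in caudal-half tissue, and 3.93 and 3.86 in yolk sac, where it was within the bacterial range. It was called higher in heart tube (limma adjusted p = 0.009) and caudal-half tissue (limma adjusted p = 0.0486) than in yolk sac, with no size given since the yolk sac level is not above background. Ehd1, Pacsin1 and Pacsin3 passed no test. In all, 0 of the 6 paralogues were higher and 1 lower in heart tube than in caudal-half tissue, 1 higher and 2 lower in heart tube than in yolk sac, and 1 higher and 1 lower in caudal-half tissue than in yolk sac. Their median differences were 0.19, -0.37 and -0.29 in those comparisons, beside -0.08, -0.06 and 0.02 over all genes. Of all genes, 5.51%, 11.8% and 9.08% were called in either direction.

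Partners of caveolae were measured next. Plvap, which forms the diaphragm across the neck of endothelial caveolae, read 9.97 and 9.65 in heart tube, 10.40 and 10.15 in caudal-half tissue, and 11.26 and 11.18 in yolk sac. It was lower than in yolk sac in heart tube (-1.41 ± 0.19, limma adjusted p = 0.0063) and caudal-half tissue (-0.95 ± 0.19, limma adjusted p = 0.0323), and its difference between those 2 tissues did not pass (-0.47). Nos3, the endothelial nitric oxide synthase that caveolin-1 binds and restrains, was at 7.50 ± 0.06 in heart tube, 6.59 ± 0.12 in caudal-half tissue and 7.04 ± 0.16 in yolk sac (SD, n = 2). It was higher in heart tube than in caudal-half tissue (0.91 ± 0.17 SE, limma adjusted p = 0.0358) and passed in no other comparison. Cd36, a fatty acid carrier found in caveolae, was lower in caudal-half tissue than in yolk sac (-4.81, limma adjusted p = 0.00884). It was called lower in heart tube than in yolk sac too (limma adjusted p = 0.00155), with no size given, since its heart tube arrays, at 2.51 and 4.80, had a mean within the bacterial range. The lipoprotein receptor gene Scarb1 went the same way (-1.76 and -1.22). Src, the kinase that phosphorylates caveolin-1, was higher in caudal-half tissue than in yolk sac (2.38 ± 0.46, limma adjusted p = 0.0272). The other 5 of the 10 partners, the actin crosslinker gene Flna among them, passed nowhere. Of the 10, 1 was higher and 0 lower in heart tube than in caudal-half tissue, and 0 were higher and 3 lower in heart tube than in yolk sac. In caudal-half tissue 1 was higher and 3 lower than in yolk sac. Of all genes, 5.51%, 11.8% and 9.08% were called in these comparisons. Median differences of the 10 were -0.04, -0.01 and -0.24, beside -0.08, -0.06 and 0.02 over all genes.

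**Figure D4:**
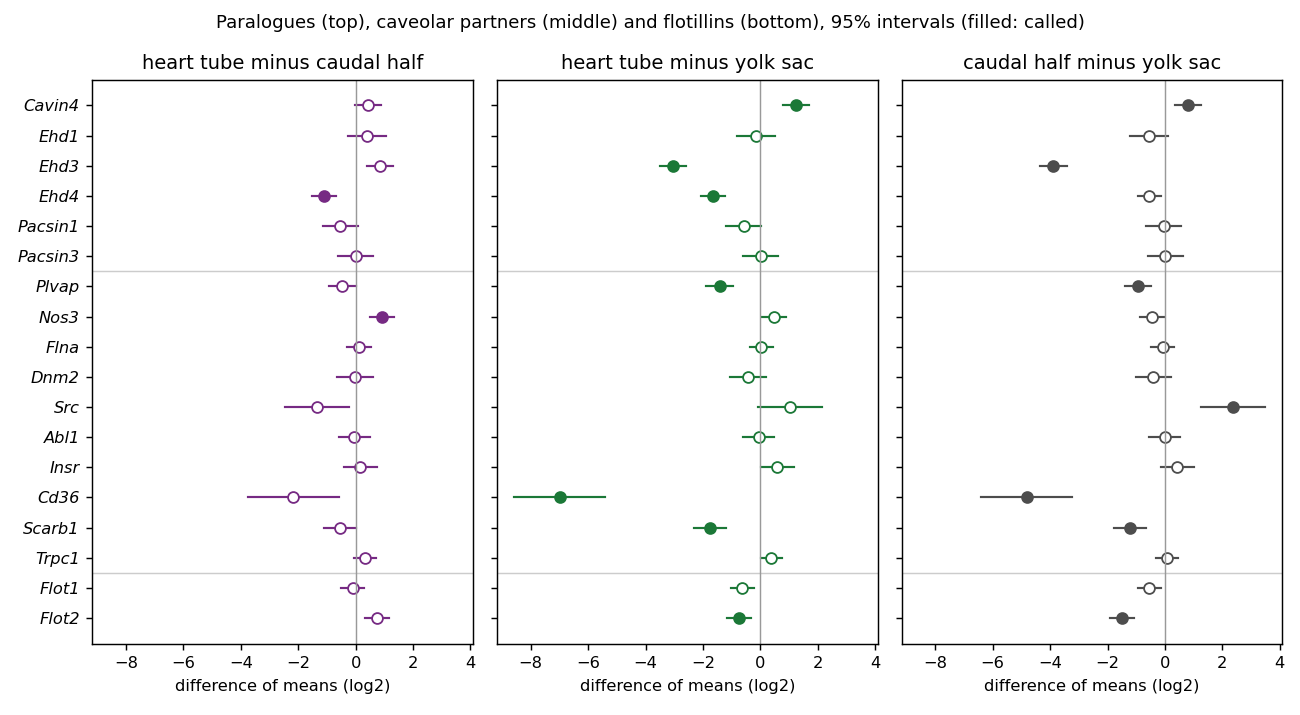
Differences between tissue means (log2, horizontal axis) of 6 paralogues, 10 caveolar partners and 2 flotillin genes with 95% confidence intervals, filled where limma's adjusted p passed 0.05. Ehd3, Plvap, Cd36, Scarb1 and Flot2 are filled on the lower side in both comparisons with yolk sac, and Cavin4 is filled on the higher side in both. Cd36 in heart tube and Cavin4 in yolk sac were within the bacterial range, so the sizes drawn against them are not exact.

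Genes with the nearest tissue profile were found by the root mean square difference between profiles over the 6 arrays, each centred on its own mean. Nearest to Cav1 was Sox18, an endothelial transcription factor, at 0.0867, with 8.92 and 9.08 in heart tube, 10.20 and 10.10 in caudal-half tissue, and 10.45 and 10.83 in yolk sac. Nt5dc3 (0.100), Zbtb46 (0.121), Grap (0.124) and Camsap3 (0.137) followed. Nearest to Cavin2 was Akr1b8, an aldo-keto reductase gene, at 0.195, with 7.61 and 8.10 in heart tube, 4.47 and 4.83 in caudal-half tissue, and 8.40 and 8.81 in yolk sac. Igfbp7 (0.255), the collagen gene Col1a2 (0.419), Cryab (0.469) and the water channel gene Aqp1 (0.474) followed. Col1a2 belongs to the mesenchyme markers above. These profiles rest on 3 tissues and describe likeness alone.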

How the data were processed

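Array data from 6 samples were analysed, 2 arrays each of heart tube, caudal-half tissue and yolk sac. The authors deposited 1 intensity per probe set and array, and RMA and affy are the tools named, per the submitters' processing notes, with no version stated. The natural log was taken of the 45101 deposited signals per array. Of the probe sets without controls, 34945 carried 1 gene symbol in the platform annotation, 932 several and 9160 none, which gave 18193 genes. Symbols were matched by Entrez identifier to a GRCm38.p6 gene table, which changed 0 of them. A model of the 3 tissue means, with no covariate, was fitted using lmFit and eBayes of limma 3.58.1 (R 4.3.3), with two-sided p-values, 3 residual and 3.48 prior degrees of freedom, and the script was tested on simulated data. The median standard error of a difference, 0.210, shows how the number of arrays limits precision. Each p-value sets a difference against a spread estimated from the replicates of all 3 tissues and, through the prior, from all genes. The design had assumed this log conversion. The labels name no batch. The members and the 13 gene lists were chosen with earlier results of these data known. Named were all members, and up to 4 called genes per list and comparison by size, with Plvap, Nos3, Cavin4, Pecam1, Cdh5 and Cldn5; likeness was ranked for Cav1 and for the other member with the widest range. Picalm, in those lists, was not analysed here. Alternatives were the log base, the probe set, dim genes, normalization, the variance prior, the samples fitted, a replicate block, leaving out each array and, added after seeing the data, scaling to endothelium markers.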

Additional observations from a re-analysis of the deposited data

How the results depend on the processing

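The tally that follows counts 11 alternatives for each difference. It leaves out the scaling to endothelium markers, although that step took away calls of Cav1 and Cavin3 and added others, as given above. Also not counted are the log base, which leaves p-values as they are, and leaving out an array of the tissue not compared, which equals fitting the compared tissues alone. Of 231 such values of the caveolae genes, 202 kept their direction and their side of the threshold, 6 lost a call, 14 gained one and 9 changed sign. Cavin2 against caudal-half tissue kept its calls in all 11, at 2.99 to 3.46 for heart tube minus caudal-half tissue and -4.14 to -3.67 for caudal-half tissue minus yolk sac. The sign of Cav2 for heart tube minus caudal-half tissue turned with the mean of all probe sets (-0.17), with quantile normalization (-0.022), and without heart tube replicate 1 (-0.29) or caudal-half replicate 1 (-0.06). Leaving out each array, Cav3 ranged over zero, from -0.083 to 0.21 for heart tube minus caudal-half tissue, from -0.071 to 0.22 for heart tube minus yolk sac and from -0.082 to 0.11 for caudal-half tissue minus yolk sac, and Ehd2 from -0.20 to 0.051 in that last comparison. None of these was called. Genes lower in heart tube than in caudal-half tissue numbered 2 with the mean of all probe sets (Cav1, Cavin3) and 1 (Cav1) without dim genes, with median centring, with quantile normalization, with a variance trend, with only those tissues fitted, and without either yolk sac array, against 0; leaving out each array gave 0 to 1. Caveolae genes lower in heart tube than in yolk sac numbered 5 with the mean of all probe sets and 6 with a variance trend, against 3. Over all genes these lower calls rose too, to 1386 and 1441, against 1214. Lower calls over all genes for heart tube minus caudal-half tissue were 584 with the mean of all probe sets, against 482. They were 686 with a variance trend and 406 with only those tissues fitted. Genes lower in caudal-half tissue than in yolk sac numbered 2 without any 1 array, against 3, as Cavin3 was lost, whereas averaging all probe sets gave 4, as Cavin1 was gained (-0.63, limma adjusted p = 0.0402). Cav1 and Cavin3 have 1 probe set each, so with the mean of all probe sets their own differences were unchanged. Their added calls for heart tube minus caudal-half tissue there came through the spread and the adjustment, which draw on other genes. Other causes were not tested.

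Of all genes, leaving out each array left 208 to 493 higher and 168 to 406 lower in heart tube than in caudal-half tissue (520 and 482 with all arrays), 387 to 764 and 549 to 1030 against yolk sac (936 and 1214), and 222 to 475 and 416 to 680 in caudal-half tissue against yolk sac (767 and 885), as fewer samples enter. Higher calls in the last comparison were 1229 with a variance trend and 475 with only those tissues fitted. Scaling to endothelium markers, added after seeing the data, shifted all genes: 9516 were then higher and 267 lower in heart tube than in caudal-half tissue, 15514 and 365 against yolk sac, and 4522 and 587 in caudal-half tissue against yolk sac. Among caveolae genes it gave 2 higher in heart tube than in caudal-half tissue, and 3 higher and 1 lower than in yolk sac. Signs turned under it, as the added constant fixes, for heart tube minus caudal-half tissue in Cavin1 (0.45), Cavin3 (0.047) and Ehd2 (0.35), for heart tube minus yolk sac in Cavin1 (0.32), Cavin2 (0.52) and Ehd2 (0.73), and for caudal-half tissue minus yolk sac in Ehd2 (0.38), all below the shifted medians of all genes (0.67, 1.14 and 0.47).

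Replicate numbers are shared between tissues, but samples with the same number did not deviate together (correlations of replicate differences 0.05, -0.01 and 0.02 over 18193 genes). With the replicate block, 400 genes were higher and 376 lower in heart tube than in caudal-half tissue, Cavin1 was called for heart tube minus yolk sac (-0.88, limma adjusted p = 0.0388), and Cavin3 was not called for caudal-half tissue minus yolk sac (limma adjusted p = 0.0534). Weak signals near the bacterial range, as for Cav3, limit what a difference can show.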

Other observations

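Other routes of uptake were also compared. Flot2, which encodes a flotillin of membrane microdomains outside caveolae, was at 8.02 in heart tube, 7.27 in caudal-half tissue and 8.77 in yolk sac, and was lower than in yolk sac in heart tube (-0.75 ± 0.17 SE, limma adjusted p = 0.0381) and caudal-half tissue (-1.50 ± 0.17, limma adjusted p = 0.00482). Flot1 passed no test, so 1 of the 2 flotillin genes was lower in each of those comparisons, as were 6.67% and 4.86% of all genes. Between heart tube and caudal-half tissue 0 of 2 passed adjustment in limma, and 1 had an unadjusted p under 0.05.

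Of 19 measured genes of the clathrin route, 6 were lower and 0 higher in heart tube than in yolk sac. In caudal-half tissue 6 were lower and 0 higher than in yolk sac. Of all genes, 6.67% and 4.86% were called lower in those comparisons. Median differences of the 19 were -0.60 and -0.36, beside -0.06 and 0.02 over all genes. Dab2, a clathrin adaptor for lipoprotein receptors, was at 9.67 in heart tube, 9.67 in caudal-half tissue and 11.77 in yolk sac, with differences from yolk sac of -2.09 ± 0.16 in both tissues (limma adjusted p = 0.000661 and 0.00113). Ap2s1, the small subunit of the AP2 adaptor, was lower than in yolk sac too, with differences of -1.91 in heart tube and -1.58 in caudal-half tissue. Cltc, the clathrin heavy chain gene, differed by -0.75 and -0.77. Between heart tube and caudal-half tissue 1 of the 19 was higher in heart tube (Eps15, 0.99) and 1 lower (Bin1, -1.15). Visceral endoderm markers were high on the yolk sac arrays, as given above, and their part in these levels was not tested.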
